A study of Mus musculus with 6 samples.

Results

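Transcripts of 37 genes of amino acid breakdown and the urea cycle were examined in whole livers of mice that lack AEG-1 in hepatocytes. The genes were taken by symbol from a written list, and each of the 37 matched 1 of the 46983 rows of the count table. They cover the urea cycle (7 genes), glutamine, serine and aminotransferase reactions (6), tryptophan (6), phenylalanine and tyrosine (4), proline and hydroxyproline (3), glycine and glyoxylate (5), lysine and branched-chain amino acids (3), cysteine and taurine (2), and the aldehyde dehydrogenase Aldh1b1. The knockout mice, named AEG-1DHEP in the series, carry a hepatocyte-specific deletion of AEG-1, the product of Mtdh. The control mice are AEG-1fl/fl animals, which carry the conditional allele without the deletion, and their library titles call them WT. All animals were 12 weeks old, on a C57BL/6 background, fed chow and not treated. The sources used here name neither the driver of the deletion nor the sex of the animals, and Mtdh was not measured separately in the other cell types of the liver.

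The liver removes surplus amino acids by transferring or releasing their nitrogen and burning the carbon skeletons. Ammonia and aspartate nitrogen are joined into urea by enzymes of the mitochondria and cytosol, most abundant in hepatocytes near the portal vein, while glutamine synthetase captures remaining ammonia around the central vein. Many of these enzymes are known to be induced by glucagon and glucocorticoids during fasting or on a protein-rich diet.

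Each group has 3 libraries in the count table, labelled as biological replicates. Control replicates 1 and 2 held the same count for every gene, a difference smaller than sampling noise, so the pair entered as 1 sample, called control replicate 1. That left 3 knockout and 2 distinct control libraries, with totals of 29557477 to 33685670 counts for knockout, against 30819997 and 30965664 counts for control. Levels are given as CPM, counts scaled to a common library total with TMM factors. Mtdh had 2.90, 2.23 and 2.37 CPM in the knockout livers, against 48.0 and 54.6 CPM in the control livers, so each library went with its label. The hepatocyte marker Alb was at 59584 to 70370 CPM in the knockout livers, against 53725 and 80510 CPM in the control livers. Skeletal muscle markers summed to 25.6 CPM in knockout replicate 1 and to at most 1.19 CPM in the other distinct libraries. Beyond hepatocytes, whole liver holds further cell types, so fewer cells of a type and less RNA per cell cannot be told apart.

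None of the 37 genes passed the test between knockout and control livers. All 37 were tested, and 0 passed edgeR's quasi-likelihood test with Benjamini-Hochberg adjustment over 16441 genes, in either direction. Over all tested genes, 0.0% were called higher and 0.00608% lower, and the 1 gene behind that share was Mtdh. DESeq2 also called 0 of the 37, where it called 0.034% of its tested genes higher and 0.0534% lower. At an unadjusted p under 0.05, edgeR gave 2 of the 37, both with lower means in knockout livers, beside 3.43% of all tested genes. DESeq2 gave 4 of the 37 at that limit, beside 2.94% of the same 16441 genes. The edgeR number was 7 without control replicate 3, where 6.04% of all genes met the limit, and 4 without knockout replicate 2, where 4.53% did. It was 3 without knockout replicate 3 (4.52% of all genes), 1 without knockout replicate 1 (2.4%) and 1 without control replicate 1 (3.15%). On all 6 columns as deposited it was 7, beside 9.79% of all genes. With all 5 distinct libraries, the unadjusted limit was met by 1.8% of all genes in the lower direction and 1.63% in the higher direction by edgeR. Of the 37, 26 had a negative and 11 a positive log2 fold change, with a median of -0.13, beside a median of 0.01 and 47.9% negative values over all tested genes. The count rests on control replicate 1, since without that library 17 of the 37 were negative and the median was 0.03. The 95% interval of the log2 fold change stayed within 1 of 0 for 26 of the 37 genes, against 74.8% of all tested genes. The median half-width of these intervals was 0.45 on the log2 scale for the 37 genes and 0.46 for all tested genes. The intervals are not adjusted for the number of genes tested. Smaller differences were not detectable at this number of libraries, and larger ones could also miss the adjusted test, as Acmsd did at -1.12.

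**Figure D1:**
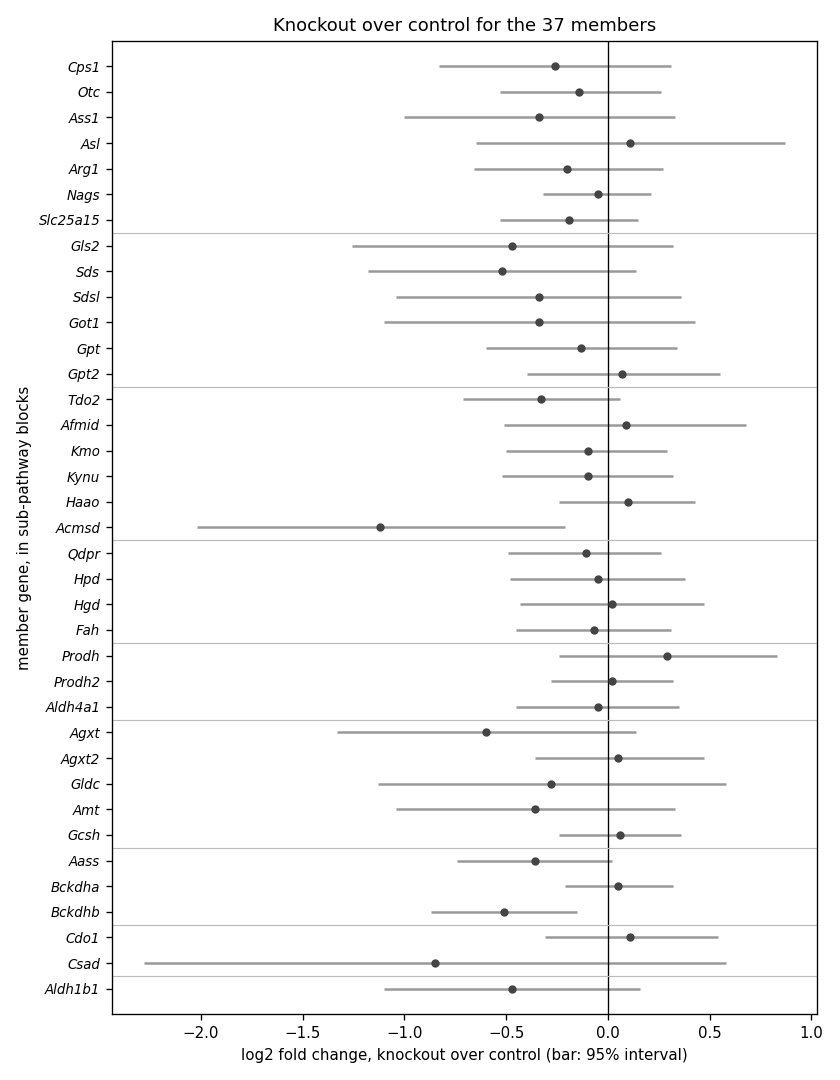
Log2 fold change of each of the 37 genes, knockout over control, with its 95% interval from the edgeR fit, in blocks by sub-pathway. The points run from -1.12 for Acmsd to 0.29 for Prodh, and the intervals of Acmsd and Bckdhb are the 2 that do not reach 0.

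Control replicates 1 and 3 differed by more than the group means did for 26 of the 37 genes, close to the 66.2% of all tested genes. Control replicate 1 held the highest level of 19 of the 37, where it held the highest level of 21.4% of all tested genes. Knockout replicate 2 held the lowest level of 20 of the 37, and the lowest level of 20.2% of all tested genes. In the sum over the 37 genes, the knockout livers had 21050, 16834 and 21556 CPM, against 24197 and 20704 CPM in the control livers. The summed level thus overlapped between the groups, with knockout replicate 2 lowest and control replicate 1 highest.

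**Figure D2:**
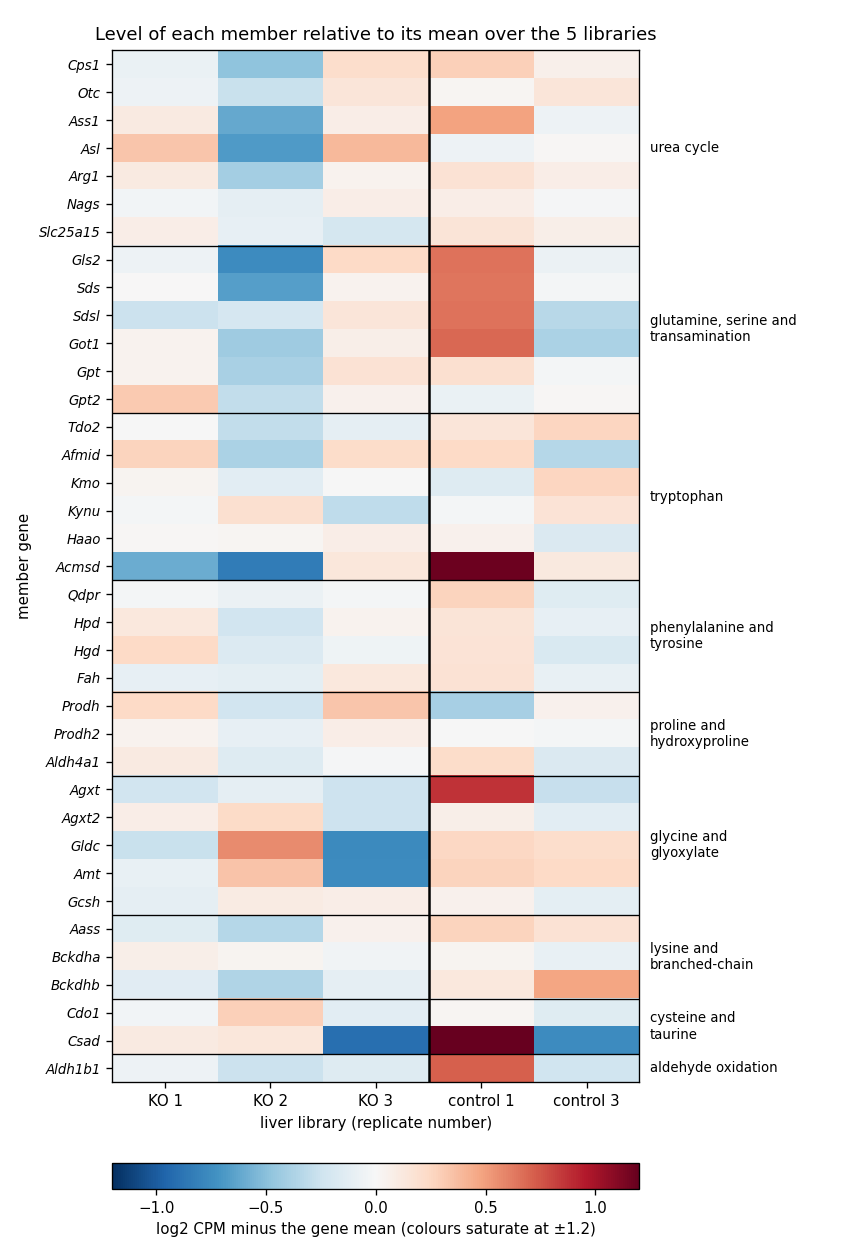
Level of each gene in each distinct library as log2 CPM minus the gene's mean over the 5 libraries, with knockout libraries on the left. Blue cells gather in knockout replicate 2 for the urea cycle and glutamine block, and red cells in control replicate 1, where Csad reached 195 CPM against 43.3 CPM in control replicate 3.

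Markers of other cells also differed between libraries. General hepatocyte markers, 7 of 8 with a negative log2 fold change, summed to 84467, 88670 and 95392 CPM in the knockout livers, against 111420 and 78899 CPM in the control livers. Control replicate 1 was thus the highest library for hepatocyte markers as it was for many of the 37 genes. All 7 sinusoidal endothelial markers were negative, with sums of 189, 146 and 131 CPM in the knockout livers, against 178 and 220.5 CPM in the control livers. Stellate cell markers were also negative for 7 of 7, with 236, 195 and 160.2 CPM in the knockout livers, against 204 and 227 CPM in the control livers. Each of these lists had 2 markers at an unadjusted edgeR p under 0.05, beside 3.43% of all tested genes. In the sums of both lists knockout replicate 1 lay above control replicate 1, and the groups overlapped. By single marker, Pecam1, Cdh5, Lyve1, Col1a1 and Acta2 had every knockout library below both controls, a pattern held by 8.72% of all tested genes. The other markers of both lists overlapped. Of the 4 adipocyte markers tested, 3 went the other way, Cfd, Plin4 and Cidea, and Fabp4 was at -0.06 (SE 0.26), with a median of 1.17. The others, Adipoq, Lep and Plin1, had at most 1 count in any library and were not tested by edgeR. The 7 listed summed to 23.9, 31.8 and 11.4 CPM in the knockout livers, against 12.3 and 14.0 CPM in the control livers. All 5 erythroid markers were negative, with 469, 543 and 424 CPM in the knockout livers, against 674 and 503 CPM in the control livers. Periportal markers outside the 37 were split, with 5 of 7 positive, and summed to 10243, 7925 and 10040.2 CPM in the knockout livers, against 7738 and 8698 CPM in the control livers. Among these periportal markers, Hal, the histidine ammonia-lyase that starts histidine breakdown, had 368, 371 and 425 CPM in the knockout livers, against 764 and 572 CPM in the control livers. Hal stood at -0.79 (SE 0.17) on the log2 scale, called lower by DESeq2 with an adjusted p of 0.0237, but not by edgeR with an adjusted p of 1.0. Pericentral markers were positive for 9 of 10, with 11620.0, 10962 and 11583 CPM in the knockout livers, against 8859 and 9392 CPM in the control livers. Most of that sum was Cyp2e1, with 7370, 7012 and 7904 CPM in the knockout livers, against 5512 and 5995 CPM in the control livers. The median log2 fold change of the list was 0.16, and 1 marker, Glul, was at an unadjusted edgeR p under 0.05, beside 3.43% of all tested genes. The part of these markers in the results below was not tested.

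Acmsd, Bckdhb, Tdo2 and Aass came nearest to a group difference. The promoters of the 3 without overlap between the groups, Bckdhb, Tdo2 and Aass, are shown for that reason, chosen after their values were seen. Acmsd (ENSMUSG00000026348, chromosome 1, 127729413 to 127767978 on GRCm38) encodes the decarboxylase that turns the tryptophan intermediate aminocarboxymuconate semialdehyde away from NAD synthesis. It had 11.4, 9.60 and 18.9 CPM in the knockout livers, against 38.9 and 18.7 CPM in the control livers. Knockout replicate 3 and control replicate 3 were at nearly the same level, so the groups overlapped. The log2 fold change was -1.12 (SE 0.38, 95% interval -2.02 to -0.21), with an unadjusted edgeR p of 0.0230 and an adjusted p of 1.0. It was -0.50 without control replicate 1 and -1.55 without control replicate 3.

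Bckdhb (ENSMUSG00000032263, chromosome 9, 83925145 to 84124240) encodes the beta subunit of the branched-chain ketoacid dehydrogenase, the committed step of leucine, isoleucine and valine breakdown. It had 66.8, 57.2 and 68.4 CPM in the knockout livers, against 80.2 and 102 CPM in the control livers. Every knockout library lay below every control library. For Bckdhb, the log2 fold change was -0.51 (SE 0.15, 95% interval -0.87 to -0.15), with an unadjusted edgeR p of 0.0131 and an adjusted p of 1.0. The value was -0.68 without control replicate 1 and -0.32 without control replicate 3.

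Tdo2 (ENSMUSG00000028011, chromosome 3, 81957090 to 81976202) encodes tryptophan dioxygenase, which opens the tryptophan ring as the entry to the kynurenine pathway. It had 1768, 1447 and 1648 CPM in the knockout livers, against 1953 and 2111 CPM in the control livers, with no overlap. This gave Tdo2 a log2 fold change of -0.33 (SE 0.16, 95% interval -0.71 to 0.06). Aass (ENSMUSG00000029695, chromosome 6, 23072173 to 23132986) encodes the bifunctional enzyme that starts lysine breakdown in mitochondria. It had 315, 274 and 361 CPM in the knockout livers, against 420.0 and 393 CPM in the control livers, again with no overlap. The edgeR fit put Aass at a log2 fold change of -0.36 (SE 0.16, 95% interval -0.74 to 0.02). Bckdhb, Tdo2 and Aass were the 3 of the 37 genes whose groups did not overlap with knockout lower, and 0 had the opposite pattern. Over all tested genes, the groups did not overlap with knockout lower in 8.72% and with knockout higher in 8.16%, so 3 and 0 of 37 were close to these shares or under them.

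**Figure D3:**
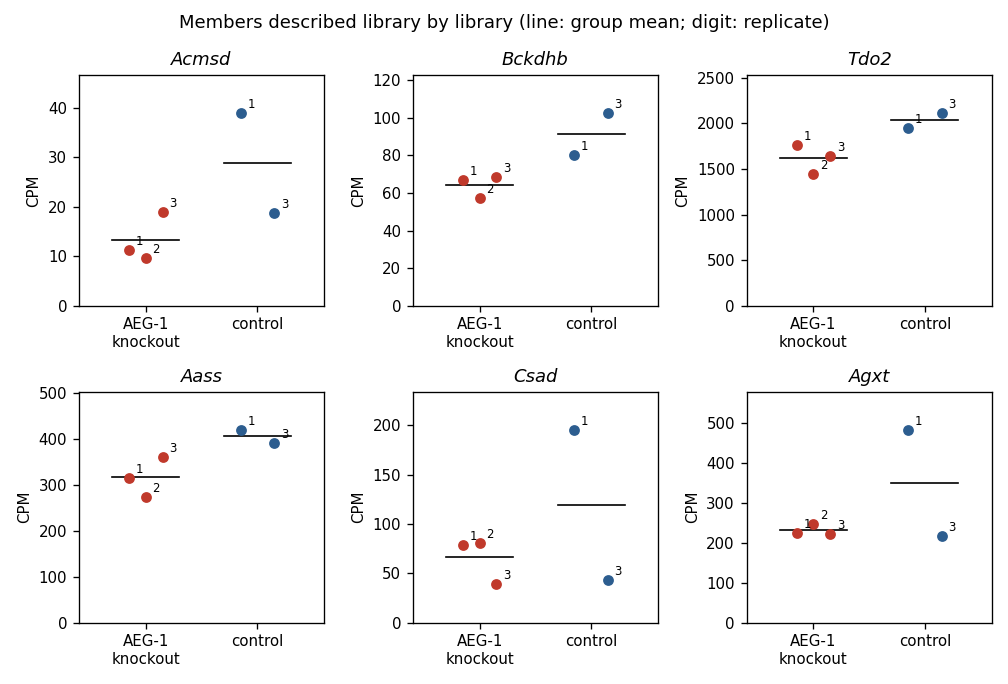
CPM of 6 genes in each distinct liver library, with the group mean as a line and the replicate number beside each point. Bckdhb, Tdo2 and Aass have all 3 knockout points below both control points, while in Acmsd, Csad and Agxt control replicate 1 stands above every other library.

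The promoters below run 5′ to 3′ on the gene's strand, from 250 bases before to 50 bases after the RefSeq start on GRCm38.p6. Capitals mark matches, on either strand, to the half-site of the cAMP response element (TGACG), the C/EBP motif (TTGCNNAA), a TATA motif (TATAAA) or the CCAAT motif (CCAAT). The Bckdhb promoter, the upstream of its 2 RefSeq starts, is chr9:83924887-83925186 on the plus strand. The Tdo2 promoter is chr3:81975679-81975978 and the Aass promoter chr6:23132937-23133236, both on the minus strand.
Bckdhb: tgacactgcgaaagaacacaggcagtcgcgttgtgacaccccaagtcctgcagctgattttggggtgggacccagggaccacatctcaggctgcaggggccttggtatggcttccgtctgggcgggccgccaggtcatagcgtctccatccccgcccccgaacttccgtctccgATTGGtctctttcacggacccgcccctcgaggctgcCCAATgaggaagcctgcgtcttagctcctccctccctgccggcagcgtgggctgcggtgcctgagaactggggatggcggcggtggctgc
Tdo2: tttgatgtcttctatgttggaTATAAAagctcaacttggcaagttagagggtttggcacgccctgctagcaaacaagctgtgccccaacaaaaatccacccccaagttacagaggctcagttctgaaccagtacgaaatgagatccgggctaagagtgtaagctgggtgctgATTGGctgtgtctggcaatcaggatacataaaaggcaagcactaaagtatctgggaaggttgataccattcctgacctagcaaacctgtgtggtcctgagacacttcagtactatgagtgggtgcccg
Aass: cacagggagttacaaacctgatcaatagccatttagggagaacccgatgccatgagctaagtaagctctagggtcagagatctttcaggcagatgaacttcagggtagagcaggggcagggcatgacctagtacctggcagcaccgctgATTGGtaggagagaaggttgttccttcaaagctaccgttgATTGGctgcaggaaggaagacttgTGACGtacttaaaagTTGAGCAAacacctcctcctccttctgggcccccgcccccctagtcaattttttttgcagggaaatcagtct
The sequences differ in base composition, with 65.0% G and C in Bckdhb, 47.7% in Tdo2 and 50.3% in Aass. Bckdhb holds 2 CCAAT, Tdo2 1 TATAAA and 1 CCAAT, and Aass 1 TGACG, 1 TTGCNNAA and 2 CCAAT matches. CCAAT is the motif found in all 3 promoters. The table matched 28 of the 37 genes with 32 promoters, of which 15.6% held TGACG, 15.6% TTGCNNAA, 12.5% TATAAA and 43.8% CCAAT. Of all 32851 promoters in the table, 20.8% held TGACG, 10.8% TTGCNNAA, 13.6% TATAAA and 37.4% CCAAT.

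Urea cycle transcripts were abundant in every library and overlapped between the groups. The 7 genes summed to 9506, 6723 and 10417 CPM in the knockout livers, against 11269 and 9615 CPM in the control livers. A negative log2 fold change was found for 6 of the 7 and a positive value for Asl, with a median of -0.19, which was -0.06 without knockout replicate 2. Cps1 (ENSMUSG00000025991, chromosome 1, 67123026 to 67231259), the mitochondrial carbamoyl-phosphate synthetase that commits ammonia to the cycle, had 4269.7, 3216 and 5221 CPM in the knockout livers, against 5488 and 4680.4 CPM in the control livers. Knockout replicate 2 was the low library, and knockout replicate 3 lay between the controls. For Cps1, the log2 fold change was -0.26 (SE 0.24, 95% interval -0.83 to 0.31). Otc, the X-linked ornithine transcarbamylase that makes citrulline, had 576, 499.96 and 666 CPM in the knockout livers, against 610.2 and 665 CPM in the control livers. Nags, whose product N-acetylglutamate switches carbamoyl-phosphate synthetase on, had 52.9, 50.2 and 57.1 CPM in the knockout livers, against 57.2 and 53.7 CPM in the control livers. Both genes had small differences, at -0.14 (SE 0.17) for Otc and -0.05 (SE 0.11) for Nags.

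The cytosolic enzymes also had their lowest level in knockout replicate 2. Ass1 (ENSMUSG00000076441, chromosome 2, 31470207 to 31520672), which joins citrulline to aspartate, had 1982, 1200.2 and 1943 CPM in the knockout livers, against 2559 and 1759 CPM in the control livers. Asl (ENSMUSG00000025533, chromosome 5, 130011258 to 130029247), which splits argininosuccinate into arginine and fumarate, had 725, 360.3 and 757 CPM in the knockout livers, against 555 and 582 CPM in the control livers. For Asl, knockout replicate 2 lay below and the other knockout libraries above both controls. Asl had a log2 fold change, knockout over control, of 0.11 (SE 0.32), which became 0.38 when knockout replicate 2 was left out, -0.02 without knockout replicate 1 and -0.07 without knockout replicate 3. Arg1, the arginase that releases urea, had 1558, 1094 and 1492 CPM in the knockout livers, against 1637 and 1534 CPM in the control livers. Slc25a15, the mitochondrial ornithine carrier, had 343, 303 and 281 CPM in the knockout livers, against 363 and 342 CPM in the control livers. Its knockout replicate 1 and control replicate 3 were the only libraries that overlapped, and then by less than 1 CPM. The log2 fold changes were -0.34 (SE 0.28) for Ass1, -0.20 (SE 0.19) for Arg1 and -0.19 (SE 0.14) for Slc25a15.

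**Figure D4:**
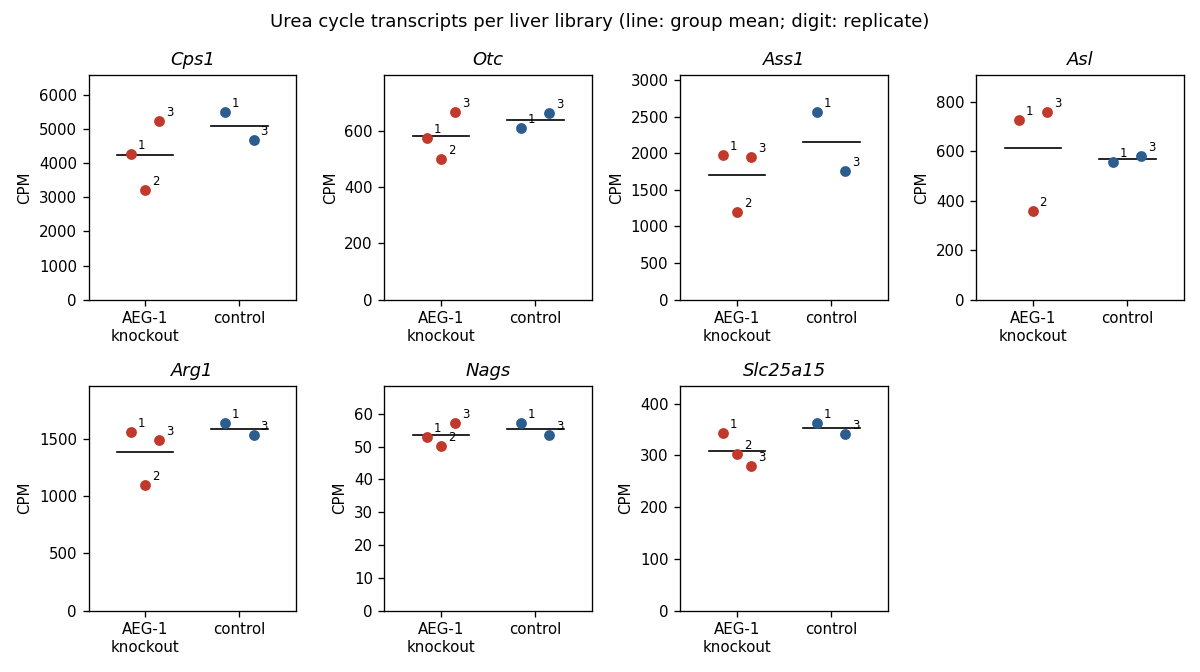
CPM of the 7 urea cycle genes in each distinct liver library, with the group mean as a line and the replicate number beside each point. Knockout replicate 2 is the lowest library in 6 panels, such as 3216 CPM for Cps1, and the groups overlap in all 7.

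Per kilobase of exon, the order of the urea cycle levels was the same in both groups at the top. Arg1 had 936 CPM per kilobase in the knockout livers and 1074 in the control livers, followed by Cps1 with 762 in the knockout livers and 915 in the control livers, and Ass1 with 708 in the knockout livers and 894 in the control livers. Otc followed with 137 CPM per kilobase in the knockout livers and 150.3 in the control livers, Asl with 127 in the knockout livers and 118 in the control livers, and Slc25a15 with 89.5 in the knockout livers and 102 in the control livers. Nags was lowest, with 18.8 in the knockout livers and 19.5 in the control livers. Arg1 was the highest of the 3 in each of the 5 libraries, whereas Ass1 was above Cps1 in knockout replicate 1 and control replicate 1 and below it in the other 3. Among all 37 genes, the lowest levels per kilobase were those of Acmsd, with 4.70 in the knockout livers and 10.2 in the control livers, and Sdsl, with 6.17 in the knockout livers and 7.79 in the control livers.

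Genes of glutamine, serine and aminotransferase reactions had a median log2 fold change of -0.34, with 5 of 6 negative. The median was -0.76 without control replicate 3 and 0.00 without control replicate 1. Gls2 (ENSMUSG00000044005, chromosome 10, 128194457 to 128210004), the liver-type glutaminase that frees ammonia from glutamine, had 474, 292 and 581 CPM in the knockout livers, against 776 and 469 CPM in the control livers. Sds (ENSMUSG00000029597, chromosome 5, 120476526 to 120483932), the serine dehydratase that turns serine into pyruvate, had 181, 114 and 185 CPM in the knockout livers, against 282 and 177 CPM in the control livers. In both genes control replicate 1 stood highest and knockout replicate 2 lowest, with the other 3 libraries in between. The log2 fold change was -0.47 (SE 0.33) for Gls2 and -0.52 (SE 0.28) for Sds, and without control replicate 1 it was -0.07 for Gls2 and -0.15 for Sds. Exons of Sds overlap those of Plbd2 on the opposite strand and exons of Gls2 those of Spryd4, and the strand setting of the counting is not known, so reads in the shared bases cannot be assigned.

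Got1, the cytosolic aspartate aminotransferase that supplies aspartate for urea synthesis, had 282, 205 and 289 CPM in the knockout livers, against 443 and 211 CPM in the control livers. Knockout replicate 2 lay just below control replicate 3, and the other knockout libraries lay between the controls, which differed 2.10-fold from each other. For Got1, the log2 fold change was -0.34 (SE 0.32), and it was 0.29 without control replicate 1 and -0.77 without control replicate 3. Sdsl, a serine dehydratase-like gene next to Sds on chromosome 5, averaged 9.24 ± 1.45 CPM over the 3 knockout livers and 11.7 ± 5.39 CPM over the 2 distinct control livers, where ± gives the SD here and for the averages that follow. The alanine aminotransferases had smaller differences. Gpt, the cytosolic form, averaged 301 ± 58.2 CPM in the knockout livers and 329 ± 35.0 CPM in the control livers, and Gpt2, the mitochondrial form, 505 ± 104 CPM in the knockout livers and 480.0 ± 21.8 CPM in the control livers. On the log2 scale, knockout over control, Gpt was at -0.13 (SE 0.20) and Gpt2 at 0.07 (SE 0.20).

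Along the kynurenine pathway, the genes between Tdo2 and Acmsd had group means closer together than those of the 2 outer genes. The median of the 6 tryptophan genes was -0.10, and it was -0.25 without control replicate 1. Afmid, the formamidase that follows Tdo2, averaged 41.8 ± 9.62 CPM in the knockout livers and 39.4 ± 11.1 CPM in the control livers. Kmo, the hydroxylase that acts on kynurenine, averaged 391 ± 22.5 CPM in the knockout livers and 419 ± 83.8 CPM in the control livers. Kynu, the kynureninase, averaged 200.5 ± 34.0 CPM in the knockout livers and 215 ± 19.4 CPM in the control livers. Haao, the dioxygenase that produces the substrate of Acmsd, averaged 570.1 ± 14.8 CPM in the knockout livers and 534 ± 59.5 CPM in the control livers. The log2 fold changes were 0.09 (SE 0.25) for Afmid, -0.10 (SE 0.17) for Kmo, -0.10 (SE 0.18) for Kynu and 0.10 (SE 0.14) for Haao. Afmid shares exonic bases with Tk1 on the opposite strand and with Gm20708 on the same strand, with the same limit on assigning reads. The 5 other tested tryptophan genes, Ido2, Kyat1, Kyat3, Aadat and Qprt, all had negative values with a median of -0.17, and 0 passed the test. Aadat had -0.25 (SE 0.18) and Kyat1 -0.25 (SE 0.19), the 2 smallest p-values of that group. Ido1, the dioxygenase of immune and other cells outside hepatocytes, had 0 counts in every library.

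Phenylalanine and tyrosine genes were the closest to 0 of the larger blocks, with a median log2 fold change of -0.06, which was 0.09 without control replicate 1. Hpd (ENSMUSG00000029445, chromosome 5, 123171807 to 123182727), the dioxygenase that makes homogentisate, had 1967, 1540.3 and 1852 CPM in the knockout livers, against 2009 and 1682 CPM in the control livers. Its log2 fold change was -0.05 (SE 0.18, 95% interval -0.48 to 0.38). Hgd, which opens the homogentisate ring, averaged 738 ± 108 CPM in the knockout livers and 729.7 ± 122 CPM in the control livers. Fah, the last enzyme of the route, averaged 577 ± 55.9 CPM in the knockout livers and 607 ± 79.6 CPM in the control livers. Qdpr, which regenerates the cofactor tetrahydrobiopterin, averaged 279 ± 5.13 CPM in the knockout livers and 301 ± 59.9 CPM in the control livers. The values ran from -0.11 for Qdpr to 0.02 for Hgd, and each 95% interval stayed within 0.49 of 0. Of 4 further genes of this route, 3 were positive and 0 passed.

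Proline genes held the highest value among the 37. Prodh, the proline dehydrogenase of mitochondria, had 275, 198 and 294 CPM in the knockout livers, against 176 and 241 CPM in the control livers. Knockout replicate 2 lay between the controls, and the other knockout libraries lay above both. The log2 fold change was 0.29 (SE 0.22, 95% interval -0.24 to 0.83). Prodh2, which oxidises hydroxyproline, averaged 219 ± 14.4 CPM in the knockout livers and 216 ± 1.95 CPM in the control livers, and Aldh4a1, which completes the oxidation to glutamate, 263 ± 23.8 CPM in the knockout livers and 273 ± 52.3 CPM in the control livers. On the log2 scale, Prodh2 was at 0.02 (SE 0.13) and Aldh4a1 at -0.05 (SE 0.17). Exons of Aldh4a1 overlap those of Gm21969 on the same strand, so reads in the shared bases cannot be assigned.

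Agxt (ENSMUSG00000026272, chromosome 1, 93135240 to 93145421), the peroxisomal aminotransferase that turns glyoxylate into glycine, had 225, 246 and 223 CPM in the knockout livers, against 481 and 217 CPM in the control livers. The knockout libraries and control replicate 3 were close together, and control replicate 1 alone stood high. Its log2 fold change was -0.60 (SE 0.31), with 0.08 without control replicate 1 and -1.06 without control replicate 3. Agxt2, a mitochondrial alanine-glyoxylate aminotransferase, averaged 203 ± 33.3 CPM in the knockout livers and 196 ± 18.7 CPM in the control livers. Exons of Agxt2 overlap those of Gm21973 on the same strand, with the same limit on assigning reads.

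The glycine cleavage system showed another split inside the knockout group. Gldc (ENSMUSG00000024827, chromosome 19, 30098449 to 30175418), its decarboxylase, had 112, 199 and 79.3 CPM in the knockout livers, against 159 and 156 CPM in the control livers. Amt, its aminomethyltransferase, had 37.6, 50.8 and 23.7 CPM in the knockout livers, against 48.3 and 47.4 CPM in the control livers. In both, knockout replicate 2 lay above and knockout replicates 1 and 3 below the controls, which were nearly equal. The log2 fold change was -0.28 (SE 0.36) for Gldc and -0.36 (SE 0.29) for Amt, and without knockout replicate 2 it was -0.72 for Gldc and -0.64 for Amt, with adjusted p of 0.994 for both by edgeR. Gcsh, the lipoyl carrier of the same complex, did not follow them, with 62.9, 72.7 and 71.9 CPM in the knockout livers, against 70.2 and 62.6 CPM in the control livers. The median of the 5 glycine and glyoxylate genes was -0.28, which became 0.08 when control replicate 1 was left out, -0.64 without knockout replicate 2 and -0.02 without knockout replicate 3.

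Aass, Bckdha and Bckdhb had a median of -0.36, and the branched-chain dehydrogenase subunits had unlike values. Bckdha, the alpha subunit that pairs with Bckdhb, had 73.3, 71.8 and 68.1 CPM in the knockout livers, against 71.4 and 65.6 CPM in the control livers, which gave 0.05 (SE 0.11) on the log2 scale. The Bckdha interval ran from -0.21 to 0.32, while that of Bckdhb ran from -0.87 to -0.15, and the difference between the subunits was not tested. Bckdha shares exonic bases with B3gnt8 on the opposite strand, and B3gnt8 had 77 to 123 counts in the knockout libraries and 136 and 76 in the control libraries. Of 21 further genes of lysine and branched-chain breakdown, 14 were negative and 7 positive, with a median of -0.04 and 0 past the test. Dhtkd1, of the lysine route, had -0.44 (SE 0.20) and the isovaleryl-CoA dehydrogenase Ivd -0.31 (SE 0.17), the smallest p-values of that list.

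The cysteine and taurine genes had a median of -0.37, and it was 0.40 without control replicate 1. Cdo1, the cysteine dioxygenase, had 967, 1202 and 905 CPM in the knockout livers, against 1002 and 891 CPM in the control livers, which gave 0.11 (SE 0.18) on the log2 scale. Csad (ENSMUSG00000023044, chromosome 15, 102176998 to 102189043), the decarboxylase that leads to hypotaurine, had 78.6, 80.6 and 39.1 CPM in the knockout livers, against 195 and 43.3 CPM in the control livers. Control replicate 1 was 4.51 times control replicate 3, the widest control gap of the 37 genes, with knockout replicates 1 and 2 between the controls and knockout replicate 3 below both. The log2 fold change of Csad was -0.85 (SE 0.60), and it was 0.61 without control replicate 1 and -1.56 without control replicate 3. Cth, the cystathionine gamma-lyase that makes cysteine and is not among the 37, had 439, 279 and 384 CPM in the knockout livers, against 568 and 480.4 CPM in the control livers, with a log2 fold change of -0.51 (SE 0.21). Aldh1b1, a mitochondrial aldehyde dehydrogenase, had 84.8, 73.6 and 79.1 CPM in the knockout livers, against 145 and 74.8 CPM in the control livers. Its log2 fold change of -0.47 (SE 0.26) likewise became 0.08 without control replicate 1.

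Control replicate 1 was at least 1.5 times control replicate 3 for 8 of the 37 genes, namely Gls2, Sds, Sdsl, Got1, Acmsd, Agxt, Csad and Aldh1b1. For 5 of them, Sdsl, Got1, Agxt, Csad and Aldh1b1, the sign of the log2 fold change depended on which control library was used. It stayed negative without either control for Gls2, Sds and Acmsd.

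**Figure D5:**
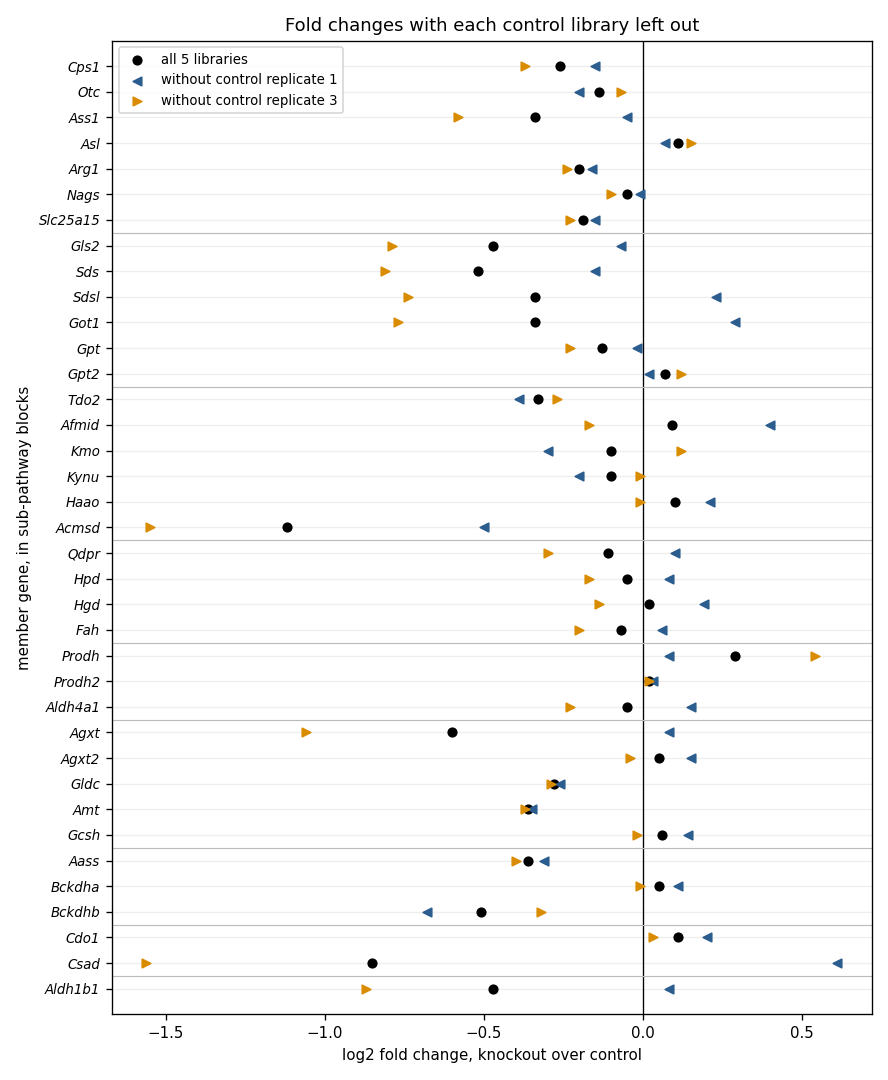
Log2 fold change of each of the 37 genes, knockout over control, with all 5 distinct libraries and with each control library left out, which leaves 1 control library whose spread is taken from the other group. Csad is at -1.56 without control replicate 3 and at 0.61 without control replicate 1. Bckdhb, Tdo2 and Aass stay below 0 in all 3 fits, which follows from their groups not overlapping.

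Nitrogen handling outside the 37 genes had values in the other direction for some genes. Of 9 further genes of nitrogen entry, 7 were tested, 6 were positive and 0 passed. Glul and Oat are counted here and also among the pericentral markers above. Glul, the glutamine synthetase of pericentral hepatocytes, had 839, 885 and 810.03 CPM in the knockout livers, against 508 and 711 CPM in the control livers, and all knockout libraries lay above both controls. Its log2 fold change was 0.47 (SE 0.18, 95% interval 0.03 to 0.91). Of 11 further serine, threonine and aminotransferase genes, 8 were tested, and Shmt1, the cytosolic serine hydroxymethyltransferase, had 286, 251 and 245 CPM in the knockout livers, against 217 and 188 CPM in the control livers. For Shmt1, the log2 fold change was 0.36 (SE 0.14). Unadjusted edgeR p-values were 0.0385 for Glul, 0.0410 for Shmt1 and 0.0496 for Cth, and their adjusted p was 1.0.

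Among 11 regulators of amino acid breakdown, 5 were positive and 6 negative, with a median of -0.05 and 0 past the test. Ppargc1a, the coactivator known for fasting responses in liver, had 11.7, 11.2 and 9.66 CPM in the knockout livers, against 8.67 and 6.54 CPM in the control livers, which gave 0.51 (SE 0.18) on the log2 scale. Atf4, the transcription factor of the amino acid response, had a log2 fold change of 0.26 (SE 0.15). Klf15 and Tat, named after their values were seen, also had their lowest level in knockout replicate 2. That library was lowest for 20.2% of all tested genes. Among the other regulators it was also lowest for Cebpa, Nr3c1 and Creb1, but not for Gcgr, Cebpb, Hnf4a, Foxa2, Crtc2, Ppargc1a or Atf4. Klf15, a glucocorticoid-induced regulator of amino acid breakdown, had 174, 94.6 and 184 CPM in the knockout livers, against 165 and 161 CPM in the control livers. Tat, the tyrosine aminotransferase, had 1607, 621 and 1462 CPM in the knockout livers, against 1131 and 1107 CPM in the control livers. Knockout replicate 2 was thus the low library in both genes, as for Cps1, Ass1, Asl and Arg1, and what the low level stems from was not tested.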

How the data were processed

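Per the labels' protocols, whole-liver total RNA went into TruSeq libraries that were read on a HiSeq2500. The authors deposited raw counts per gene for 6 libraries. Tools listed in the submitters' processing notes are featureCounts 1.4.6-p4, Subread 1.4.6-p4, Trimmomatic 0.33 and FastQC, with the builds mm10 and GRCm38. How strand and multiply matching reads were handled, and which annotation was used, is not given in the sources used here. Exon length and coordinates are deposited per gene, per the file headers (unit: other, in bases). Symbols were looked up in GENCODE vM21, where 46488 of 46983 identifiers were found and 99.95% of the matched spans overlapped. Promoters came from RefSeq on GRCm38.p6.

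Identical columns were entered once. Genes were kept by filterByExpr (16441), scaled by TMM and compared with edgeR 4.0.16 (quasi-likelihood F test, two-sided, Benjamini-Hochberg adjusted p under 0.05) in R 4.3.3. SEs come from the F statistic. Intervals cover 95%. By library totals without TMM factors, a count of 3 equals 0.089 to 0.101 CPM, a floor that concerns counting error only. Alternatives were DESeq2 1.42.0, RLE and library-total scaling, no low-count filter, all 6 columns, a replicate block, and leaving out each library. The test was checked on simulated counts. The genes and lists were chosen with earlier results of these data known. Genes given in every library were the urea cycle, the entry step of each route and those with an unadjusted p under 0.05, plus the genes the text states or shows for their spread, chosen after their values were seen. Of other pathway genes, at most 2 per list were named by smallest p, and further ones were named after their values were seen. Some items of the wider lists and 1 promoter are not reported here.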

Additional observations from a re-analysis of the deposited data

How the results depend on the processing

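All 11 alternatives left 0 of the 37 genes past the adjusted threshold, and the lowest adjusted p of any of them by edgeR was 0.257, for Agxt without control replicate 3. Over all genes, DESeq2 called 7 higher and 11 lower, and edgeR called 3 lower without a low-count filter, 0 lower with the replicate block, and 1 to 6 lower when a library was left out. The library titles number the replicates but name no pairing. Deviations from the group means correlated at 0.06 and 0.15 between knockout and control libraries of the same number. The control deviations mirror each other, so these correlations cannot exclude pairing. With the block, Mtdh had -4.28 by edgeR, short of the threshold at an adjusted p of 0.0517. The replicate block also gave signs opposite to the values in the text for Gpt (0.02), Hpd (0.05), Aldh4a1 (0.02), Agxt2 (-0.06) and Cdo1 (-0.01), and -0.53 for the glycine and glyoxylate median. When each library was left out in turn, 17 to 31 of the 37 genes had negative values, with medians of -0.23 to 0.03. Of the 37, those at an unadjusted p under 0.05 numbered 4 by DESeq2 (2.94% of all genes), 7 on all 6 columns as deposited (9.79% of all genes) and 1 to 7 when a library was left out (2.4% to 6.04% of all genes). On all 6 columns, Afmid (-0.01) and Hgd (-0.04) also turned sign.

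Leaving out 1 library at a time gave medians of -0.76 to 0.00 for glutamine, serine and aminotransferase genes, -0.25 to -0.06 for tryptophan, -0.18 to 0.09 for phenylalanine and tyrosine, -0.64 to 0.08 for glycine and glyoxylate, -0.76 to 0.40 for cysteine and taurine and -0.87 to 0.08 for Aldh1b1. It kept the sign of 15 genes, which also kept it in the other alternatives, and turned that of 22. Their log2 fold changes ran from -0.07 to 0.38 for Asl, -0.74 to 0.23 for Sdsl, -0.77 to 0.29 for Got1, -0.25 to 0.02 for Gpt, -0.08 to 0.21 for Gpt2, -0.17 to 0.40 for Afmid, -0.30 to 0.12 for Kmo, -0.23 to 0.01 for Kynu, -0.01 to 0.21 for Haao, -0.30 to 0.10 for Qdpr and -0.17 to 0.08 for Hpd. They ran from -0.14 to 0.19 for Hgd, -0.20 to 0.06 for Fah, -0.02 to 0.07 for Prodh2, -0.23 to 0.15 for Aldh4a1, -1.06 to 0.08 for Agxt, -0.06 to 0.18 for Agxt2, -0.02 to 0.14 for Gcsh, -0.01 to 0.11 for Bckdha, -0.02 to 0.20 for Cdo1, -1.56 to 0.61 for Csad and -0.87 to 0.08 for Aldh1b1. A fit with 1 control library assumes that it varies like the knockout group. Each of the 37 genes had at least 232 counts in every library, which bounds counting error only, and the number of libraries limits the precision. The causes of the changes between settings were not tested.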
